A study of Mus musculus with 6 samples.

Results

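The genes described here are 32 genes of glycolysis and of the transcriptional response to low oxygen, followed through the immune cells of healthy mouse brain and of 2 kinds of glioma. They were chosen by gene symbol for their known roles, and all 32 had a row among the 27378 gene IDs of the count table. They comprise 3 membrane transporters (Slc2a1, Slc2a3, Slc16a3), 16 enzymes of the glycolytic route (Hk1, Hk2, Hk3, Gpi1, Pfkl, Pfkp, Pfkfb3, Aldoa, Aldoc, Tpi1, Gapdh, Pgk1, Pgam1, Eno1, Pkm, Ldha), 12 genes known to be induced by low oxygen (Vegfa, Adm, Hilpda, Bnip3, Egln3, Ndrg1, P4ha1, Ankrd37, Mif, Pdk1, Mxi1, Bnip3l) and Hif1a, which encodes the oxygen-regulated subunit of the transcription factor itself. The cells were sorted by flow cytometry for CD45, the surface protein shared by blood-derived cells and microglia, and their RNA was read by droplet sequencing from the 3′ end of transcripts (10x Genomics, version 3 chemistry).

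Each of the 3 groups had 2 libraries, labelled replicate 1 and replicate 2. Healthy brains carried wild-type Trp53 and wild-type Rbpj, control tumours lacked Trp53 and had wild-type Rbpj, and Rbpj-/- tumours lacked both genes. Rbpj binds DNA as the nuclear effector of Notch signalling and Trp53 is a tumour suppressor. Healthy brain and control tumour therefore differ in Trp53 and in the presence of a tumour at once, and these cannot be told apart. Tumours were early gliomas located by green fluorescence from a Cre reporter and dissected out. The promoter that drove Cre, the cells in which the genes were deleted and the age of the mice are not given in the sources used here. The series' description gives the number of pooled animals as 9 for healthy brain, 15 for control tumours and 9 for the tumours without Rbpj, whereas the protocol speaks of the suspension of each mouse entering its own well. Which animals entered which library is therefore not known, and the p-values speak only of how far these libraries spread, a spread that may be technical.

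Glycolysis splits glucose into pyruvate in the cytosol, and lactate dehydrogenase turns the pyruvate into lactate when cells rely on this route rather than on their mitochondria. When oxygen is scarce, hydroxylases that mark Hif1a protein for destruction slow down, the protein accumulates, and with its partner Arnt it switches on glucose transporters, most glycolytic enzymes, the vessel growth factor Vegfa and its own feedback genes. Macrophages and microglia also raise these genes when they are activated in normal oxygen, and activated lymphocytes do so when they divide. Transcript levels show neither flux through the pathway nor the oxygen level of the cells.

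From 17362 barcodes, 14365 cells were kept. The libraries held between 17430763 and 55229031 counts in all and between 512 and 6342 kept cells, with a median of 5293 to 9834 counts (unique molecular identifiers, UMIs) per cell. Barcodes that carried markers of more than 1 lineage were left out, and these made up 6.2% and 11.7% of the barcodes of the healthy libraries against 21.1% to 32.3% of those of the tumour libraries. In all, 413 barcodes had a sequence found in more than 1 library, and 72 of these were among the kept cells. Cells were clustered and the clusters named from marker genes, which gave microglia-like cells (203 to 4605 per library), monocyte/macrophage-like cells (83 to 1021), and fewer T-like, dendritic-like, NK-like and B-like cells. In the microglia-like class all 11 microglial markers were detected, with a summed level of 31360 and 31930 CPM (counts per 1000000 counts of the class in a library) in the healthy libraries against 17060 to 20900 CPM in the 4 tumour libraries. This level moves with every comparison of that class with healthy brain, and its part in them was not tested. In the monocyte/macrophage-like class, which joins border macrophages and monocytes, the summed level of the 10 border macrophage markers was 8731 and 13020 CPM in healthy brain against 1984 to 2706 CPM in the tumours. The summed level of the 11 monocyte markers there was 554 and 1135 CPM in healthy brain against 1447 to 4717 CPM in the tumours. The make-up of this class thus differed between the groups, and so did that of the microglia-like class, where different clusters held most cells of healthy replicate 1, of healthy replicate 2 and of the tumours.

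Of the 32 genes, 29 had a promoter in the RefSeq table used (build GRCm38.p6), and the other 3 were Slc2a3, Ndrg1 and Bnip3l. The core of the hypoxia response element, the letters to which Hif1a and Arnt bind, is ACGTG or GCGTG, which read CACGT or CACGC where the element lies on the opposite strand. The palindrome CACGTG holds the core on both strands and counts as 2. Within the 250 bases before a transcription start, 26 of the 29 genes (89.7%) had at least 1 core, against 41.5% of 27025 genes taken at their richest promoter. At least 2 cores were found in 62.1% of the 29 genes and in 18.7% of all genes. The promoters of the 29 genes also held more CG pairs, with a median of 17 against 6 over all genes, and a core contains such a pair, so the excess cannot be told apart from base composition. A match describes letters only and says nothing about binding. Stretches that span the cores are shown for 9 genes that passed a test in at least 1 comparison described further on and had at least 2 cores in a window. They read 5′ to 3′ along the strand of the gene, and the capitals mark the cores.
Slc16a3, chr11:120949030-120949066, plus strand: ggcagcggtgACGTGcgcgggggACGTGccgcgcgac
Pfkp, chr13:6648780-6648917, minus strand: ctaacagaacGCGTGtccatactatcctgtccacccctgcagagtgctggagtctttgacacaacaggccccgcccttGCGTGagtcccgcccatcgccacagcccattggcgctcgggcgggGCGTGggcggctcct
Pfkfb3, chr2:11502128-11502222, minus strand: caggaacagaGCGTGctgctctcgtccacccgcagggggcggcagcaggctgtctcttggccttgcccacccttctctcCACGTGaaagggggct
Pgk1, chrX:106186940-106186983, plus strand: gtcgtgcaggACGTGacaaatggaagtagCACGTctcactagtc
Pgam1, chr19:41911686-41911797, plus strand: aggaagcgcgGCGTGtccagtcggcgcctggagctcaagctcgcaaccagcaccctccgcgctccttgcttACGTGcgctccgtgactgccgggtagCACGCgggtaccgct
Ldha, chr7:46845649-46845784, plus strand: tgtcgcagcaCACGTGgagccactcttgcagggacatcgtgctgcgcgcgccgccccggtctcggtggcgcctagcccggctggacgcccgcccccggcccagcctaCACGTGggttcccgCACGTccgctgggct
Vegfa, chr17:46025360-46025391, minus strand: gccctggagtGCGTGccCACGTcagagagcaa
Hilpda, chr6:29272505-29272625, plus strand: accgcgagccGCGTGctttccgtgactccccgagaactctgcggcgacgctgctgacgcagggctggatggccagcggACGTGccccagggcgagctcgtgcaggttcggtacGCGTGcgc
Hif1a, chr12:73907722-73907811, plus strand: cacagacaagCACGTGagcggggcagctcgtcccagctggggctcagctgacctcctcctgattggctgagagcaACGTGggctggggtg
The Ldha stretch carried the most, with 5 cores, as 2 palindromes and a single core, between 155 and 20 bases before the start. The Slc16a3 stretch ended 1 base before its start and held 2 cores in 37 bases. The Vegfa stretch belongs to an internal start, since the promoter at the outer start of the gene held no core, and the Pfkfb3 and Hilpda stretches are likewise not from the most upstream start. The most upstream Hilpda promoter held 0 cores. Among the other genes that passed a test, Mif, Gpi1 and Tpi1 had 0 cores and Pkm and Aldoa had 1.

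The counting of some of these genes had limits that bear on every result. Gapdh, the enzyme best known as a reference gene, had only 173 UMIs in the whole table and was not testable. In the last 500 bases of its transcripts, the share of 31-base words that also occurred in other genes was 94.9%. The part of this share in the low count was not tested. The same share was 86.2% for Mif, 84.3% for Eno1 and 80% for Bnip3, whose counts are therefore uncertain. The last 500 bases of Pfkp lie wholly within words shared with its neighbour Pitrm1, and whether the counting used the strand is not stated in the sources used here. Pitrm1 had a log2 change of -0.02 ± 0.35 (standard error) in microglia-like cells of control tumours against healthy brain, where Pfkp changed by 2.85, and of 0.61 ± 0.31 in those of Rbpj-/- tumours, where Pfkp changed by 3.42. Adm, the adrenomedullin gene and a sensitive marker of low oxygen in many cells, had 6 UMIs over all libraries and was not testable.

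A score per cell class and library, the mean of log2(CPM + 1) over genes, was formed for the 19 glycolysis genes and for the 12 hypoxia targets, with Hif1a in neither. It was computed where a library held at least 20 cells of the class. In microglia-like cells the glycolysis score was 5.40 and 5.29 in the healthy libraries, 5.79 and 5.50 in the control tumours and 5.77 and 6.16 in the Rbpj-/- tumours. In monocyte/macrophage-like cells it was 5.46 and 5.27, then 6.82 and 6.09, then 5.99 and 6.63 in the same order. With all cells of a class kept, each tumour library lay above both healthy libraries in both classes, and the ranges of the tumour groups overlapped. The hypoxia score of microglia-like cells was 3.89 and 4.04 in healthy brain, 3.96 and 3.69 in control tumours, with 4.19 and 4.30 in Rbpj-/- tumours, so that the control tumours overlapped healthy brain. In monocyte/macrophage-like cells the hypoxia score was 3.72 and 3.64 in healthy brain against 4.19 to 4.70 over the 4 tumour libraries. Without cells that held at least 3 UMIs over the cell cycle list, the glycolysis order was lost for control tumours in microglia-like cells. Their libraries then scored 5.28 and 5.08, against 5.30 and 5.18 for healthy brain. The Rbpj-/- libraries stayed above at 5.51 and 5.75. In the monocyte/macrophage-like class control tumour replicate 2 then kept 9 cells, too few for a score. The remaining tumour libraries, at 5.57 to 6.55, lay above healthy values of 5.37 and 4.75. The scores carry no test, and with 2 libraries in a group each single comparison rests on the tests of genes that follow.

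**Figure D1:**
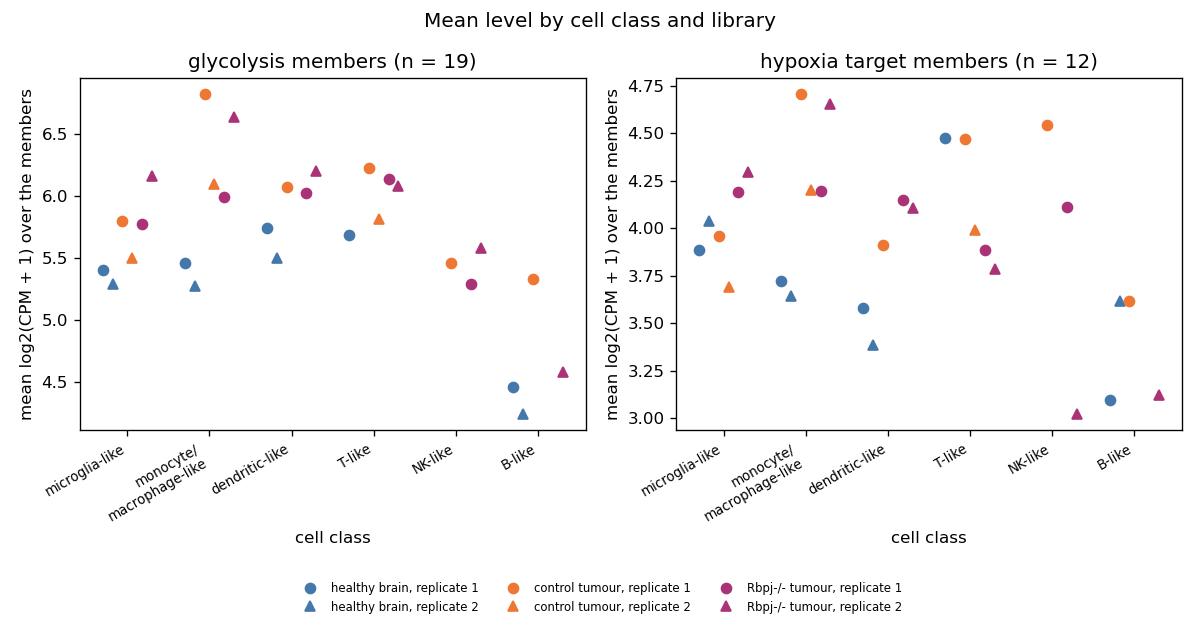
Glycolysis score and hypoxia target score (mean log2(CPM + 1) over 19 and 12 genes, vertical axes) of each library with at least 20 cells of a class, by cell class and group, each point 1 library. Tumour libraries of the microglia-like and monocyte/macrophage-like classes lie above the healthy ones in the glycolysis score. They span 5.50 to 6.82 against 5.27 to 5.46, with cells of higher cell cycle counts kept. The healthy point of the T-like class comes from cells that carry mostly microglial markers. With mixed barcodes left out, as here, the B-like class is lowest in the glycolysis score within each of the 4 libraries that show it.

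In microglia-like cells of control tumours, 3 genes were higher than in healthy brain: Pfkp and Pfkfb3, which drive the committed step of glycolysis, and Mif, a cytokine that is also a hypoxia target. Tests used edgeR's quasi-likelihood method on UMIs summed per library and class, fitted to all genes and all 6 libraries and adjusted over all genes tested (Benjamini-Hochberg), and a gene was called at an adjusted p below 0.05. The 3 genes are of 28 tested, where 3.69% of all 11166 genes were called, 3.25% as higher. Over the 28 genes the median log2 change was 0.16, against -0.02 over all genes, and 18 of the 28 were positive. Of the 17 glycolysis genes tested 2 rose and none fell, and of the 10 hypoxia targets tested 1 rose and none fell. Without an adjustment, 9 of the 28 genes had a p below 0.05.

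Pfkp, the platelet isoform of phosphofructokinase-1, stood at 1.09 and 1.40 CPM in healthy brain, at 7.49 and 9.02 CPM in control tumours and at 9.61 and 13.9 CPM in Rbpj-/- tumours. Its healthy values were low throughout and did not overlap either tumour group. The log2 change in control tumours was 2.85 ± 0.41 (SE, n = 2 libraries a group, edgeR adjusted p = 0.0016). Pfkfb3, which makes the activator of phosphofructokinase-1 and is itself induced in inflamed macrophages, was at 12.3 and 18.7 CPM in healthy brain, 67.8 and 53.6 CPM in control tumours and 69.9 and 31.6 CPM in Rbpj-/- tumours. The second Rbpj-/- library was the lowest of the 4 tumour libraries and still lay above both healthy ones. Its log2 change in control tumours was 2.10 ± 0.40 (edgeR adjusted p = 0.034). Mif was at 80.8 and 87.6 CPM in healthy brain and at 201 and 130 CPM in control tumours, without overlap, and its log2 change was 1.08 ± 0.24 (edgeR adjusted p = 0.023).

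Most of the route did not pass the test in control tumours. Hk2, the hexokinase that traps glucose in the cell, was at 473 and 640 CPM in healthy brain, 1098 and 774 CPM in control tumours and 718 and 497 CPM in Rbpj-/- tumours. Its log2 difference in control tumours was 0.86 ± 0.26 (edgeR adjusted p = 0.11), and the Rbpj-/- values overlapped the healthy ones. Hif1a had a difference of 0.86 ± 0.27 (edgeR adjusted p = 0.12) and Hilpda, a lipid droplet protein, 1.04 ± 0.31 (edgeR adjusted p = 0.10). The enzymes Tpi1, Eno1 and Aldoa had differences of 0.09 to 0.19 with standard errors of 0.24 to 0.33.

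The make-up of the class differed between the groups of this comparison. The cluster led by Egr3, Csf1 and Tnf, immediate-early and inflammatory genes, held 0 and 1 cells of the healthy libraries, 93 and 98 of the control tumours and 728 and 37 of the Rbpj-/- tumours, and its Pfkfb3 level was 71.1 to 114 CPM over the 4 tumour libraries. Without this cluster 0 of the genes were called in control tumours. That fit kept fewer control tumour cells, and the share of all genes called in it is not given. Whether these genes lost calls more than the rest is therefore not known. The count of calls also moved when healthy replicate 1 or control tumour replicate 1 was left out. Vegfa in that cluster was counted by 1 UMI in each control library and by 166 and 6 UMIs in the Rbpj-/- libraries, or at 22.6 and 17.8 CPM in the latter.

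In microglia-like cells of Rbpj-/- tumours, 13 of 28 genes tested were higher than in healthy brain and 0 were lower, where 11.7% of all 11166 genes were called, 8.10% as higher. They were 9 of the 17 glycolysis genes (Gpi1, Pfkp, Pfkfb3, Aldoa, Tpi1, Pgk1, Pgam1, Pkm, Ldha), 3 of the 10 hypoxia targets (Vegfa, Hilpda, Mif) and Hif1a. The median log2 change was 1.03 over the 28 genes and -0.03 over all genes, and 22 of the 28 were positive. This comparison shares its healthy libraries with the one before. A difference in the make-up of the class went with it: the cluster led by Spp1 and Apoc1, genes of activated microglia, held 60 of 4605 and 121 of 1619 microglia-like cells of the healthy libraries, 57 of 231 and 59 of 203 of the control tumours, and 310 of 1105 and 415 of 502 of the Rbpj-/- tumours.

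**Figure D2:**
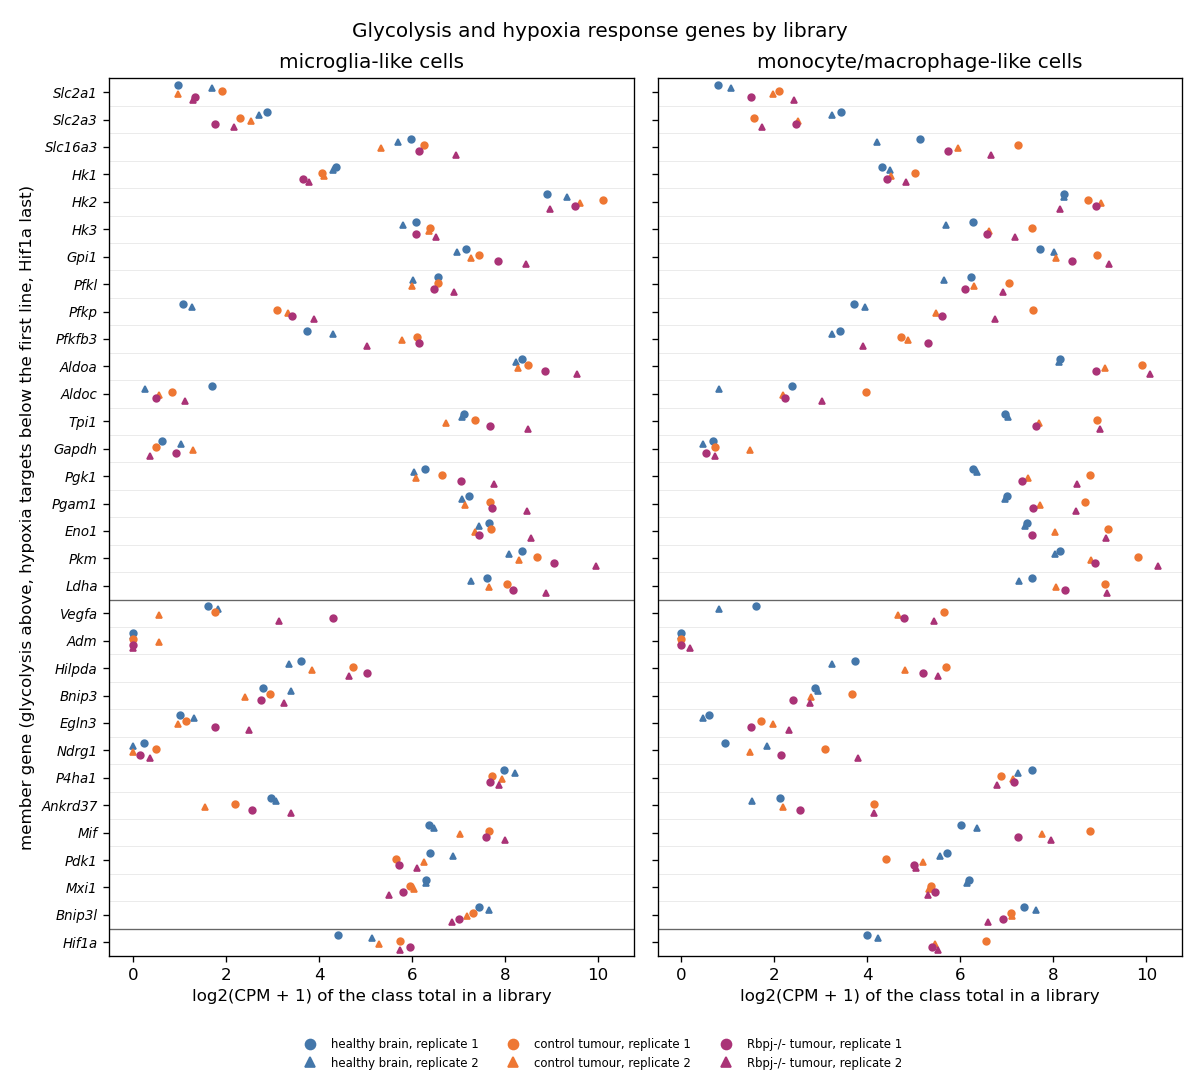
Level of each gene as log2(CPM + 1) (horizontal axis), 1 point a library, for microglia-like and monocyte/macrophage-like cells of healthy brain, control tumours and Rbpj-/- tumours. In the microglia-like class Pfkp is at 1.09 and 1.40 CPM in the healthy libraries and at 7.49 to 13.9 CPM in the tumours, whereas P4ha1 lies at 250 and 293 CPM in the healthy libraries and at 204 to 244 CPM in the tumours.

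Among the upper enzymes, Gpi1, which turns glucose-6-phosphate into fructose-6-phosphate, was at 142 and 124 CPM in healthy brain, 172 and 152 CPM in control tumours and 229 and 348 CPM in Rbpj-/- tumours. The Rbpj-/- libraries were the highest and overlapped neither other group, with a log2 change against healthy brain of 1.29 ± 0.23 (edgeR adjusted p = 0.0031). Pfkp changed by 3.42 ± 0.38 (edgeR adjusted p = 0.000113), the smallest p of the 28 genes, from the levels given above. Pfkfb3 changed by 1.95 ± 0.39 (edgeR adjusted p = 0.019). Aldoa, the aldolase that cuts the sugar into its 3-carbon pieces, was at 327 and 298 CPM in healthy brain, 357 and 308 CPM in control tumours and 462 and 743 CPM in Rbpj-/- tumours. The control tumours overlapped healthy brain and the Rbpj-/- libraries did not, with a log2 change of 1.12 ± 0.24 (edgeR adjusted p = 0.0096). Tpi1, which interconverts these pieces, was at 138 and 133 CPM in healthy brain, 161 and 105 CPM in control tumours and 204 and 357 CPM in Rbpj-/- tumours, a log2 change of 1.23 ± 0.28 (edgeR adjusted p = 0.017).

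In the lower part of the route Pgk1, Pgam1, Pkm and Ldha were called, and Eno1 was not. Pgk1, whose step makes the first ATP of the route, was at 76.3 and 64.6 CPM in healthy brain, 98.6 and 66.4 CPM in control tumours and 132 and 215 CPM in Rbpj-/- tumours, with a log2 change against healthy brain of 1.47 ± 0.26 (edgeR adjusted p = 0.0043). Pgam1, a phosphoglycerate mutase, was at 149 and 133 CPM in healthy brain, 204 and 140 CPM in control tumours and 208 and 356 CPM in Rbpj-/- tumours, a log2 change of 1.17 ± 0.27 (edgeR adjusted p = 0.017). Pkm, the pyruvate kinase of the last step, was at 328 and 269 CPM in healthy brain, 407 and 311 CPM in control tumours and 527 and 987 CPM in Rbpj-/- tumours. The second Rbpj-/- library was the highest in Pgk1, Pgam1 and Pkm, and the first lay between it and the healthy values. Pkm changed by 1.52 ± 0.29 (edgeR adjusted p = 0.0069). Ldha, which reduces pyruvate to lactate, was at 195 and 153 CPM in healthy brain, 260 and 201 CPM in control tumours and 287 and 468 CPM in Rbpj-/- tumours, and changed by 1.29 ± 0.26 (edgeR adjusted p = 0.0069). Eno1, the enolase between Pgam1 and Pkm, was at 200 and 172 CPM in healthy brain, 207 and 162 CPM in control tumours and 172 and 373 CPM in Rbpj-/- tumours. The groups overlapped, and the difference did not pass the test (log2 0.72 ± 0.32, edgeR adjusted p = 0.20).

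The transporters did not pass the test. Slc2a1, the main glucose importer of many hypoxic cells, was counted at 0.949 to 2.76 CPM over the 6 libraries, from 2 to 28 UMIs a library, with no order between groups. Slc2a3, the neuronal and lymphocyte glucose importer, was at 2.40 and 3.47 CPM in Rbpj-/- tumours against 6.34 and 5.50 CPM in healthy brain, with a log2 difference of -0.89 ± 0.40 (edgeR adjusted p = 0.18). Slc16a3, which exports lactate, was at 61.9 and 50.9 CPM in healthy brain, 75.7 and 38.9 CPM in control tumours and 70.0 and 122 CPM in Rbpj-/- tumours. Its Rbpj-/- values lay above both healthy values and did not pass the test (log2 0.93 ± 0.34, edgeR adjusted p = 0.12). Of the hexokinases other than Hk2, Hk3 was at 54.5 to 90.0 CPM and Hk1 at 11.6 to 19.6 CPM over the 6 libraries.

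The hypoxia targets divided into some that rose and some that did not. Vegfa, which recruits blood vessels, was at 2.04 and 2.52 CPM in healthy brain, 2.37 and 0.475 CPM in control tumours and 18.6 and 7.82 CPM in Rbpj-/- tumours, from 60, 27, 6, 1, 186 and 27 UMIs. Both Rbpj-/- libraries lay above all others, and the log2 change against healthy brain was 2.78 ± 0.48 (edgeR adjusted p = 0.0037). Hilpda was at 11.2 and 9.14 CPM in healthy brain, 25.6 and 13.3 CPM in control tumours and 31.5 and 24.0 CPM in Rbpj-/- tumours, a log2 change in the last of 1.63 ± 0.29 (edgeR adjusted p = 0.0035). Mif was at 191 and 253 CPM in Rbpj-/- tumours and changed by 1.58 ± 0.24 (edgeR adjusted p = 0.0011). Hif1a was at 20.3 and 34.0 CPM in healthy brain, 52.5 and 38.0 CPM in control tumours and 60.8 and 52.7 CPM in Rbpj-/- tumours. Each tumour library lay above the healthy ones, and its log2 change in Rbpj-/- tumours was 1.27 ± 0.26 (edgeR adjusted p = 0.0079).

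Other textbook targets did not rise. P4ha1, a collagen prolyl hydroxylase, was at 250 and 293 CPM in healthy brain, 208 and 244 CPM in control tumours and 204 and 232 CPM in Rbpj-/- tumours. Bnip3l, a mitophagy receptor, was at 173 and 200 CPM in healthy brain, 157 and 143 CPM in control tumours and 127 and 115 CPM in Rbpj-/- tumours. Pdk1, the kinase that keeps pyruvate out of the mitochondria, was at 82.9 and 117 CPM in healthy brain, 48.9 and 75.5 CPM in control tumours and 51.3 and 67.7 CPM in Rbpj-/- tumours. Mxi1, an antagonist of Myc, was at 77.1 and 77.6 CPM in healthy brain, 61.1 and 64.5 CPM in control tumours and 54.6 and 44.0 CPM in Rbpj-/- tumours. In these 4 genes every tumour library lay below both healthy ones. The CPM values carry no TMM scaling, and without it the median of all genes was also negative. How many of all genes lay below in the same way is not given. With the scaling, the log2 differences of the 4 genes in Rbpj-/- tumours were -0.14 ± 0.20 for P4ha1, -0.43 ± 0.19 for Bnip3l, -0.57 ± 0.25 for Pdk1 and -0.46 ± 0.19 for Mxi1. None of the 4 passed the test, with edgeR adjusted p between 0.15 and 0.71. Bnip3, the paralog of Bnip3l, had a difference of 0.03 ± 0.37, and Egln3, the hydroxylase that feeds back on Hif1a protein, had 1.62 ± 0.57 (edgeR adjusted p = 0.090) from at most 4.63 CPM.

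**Figure D3:**
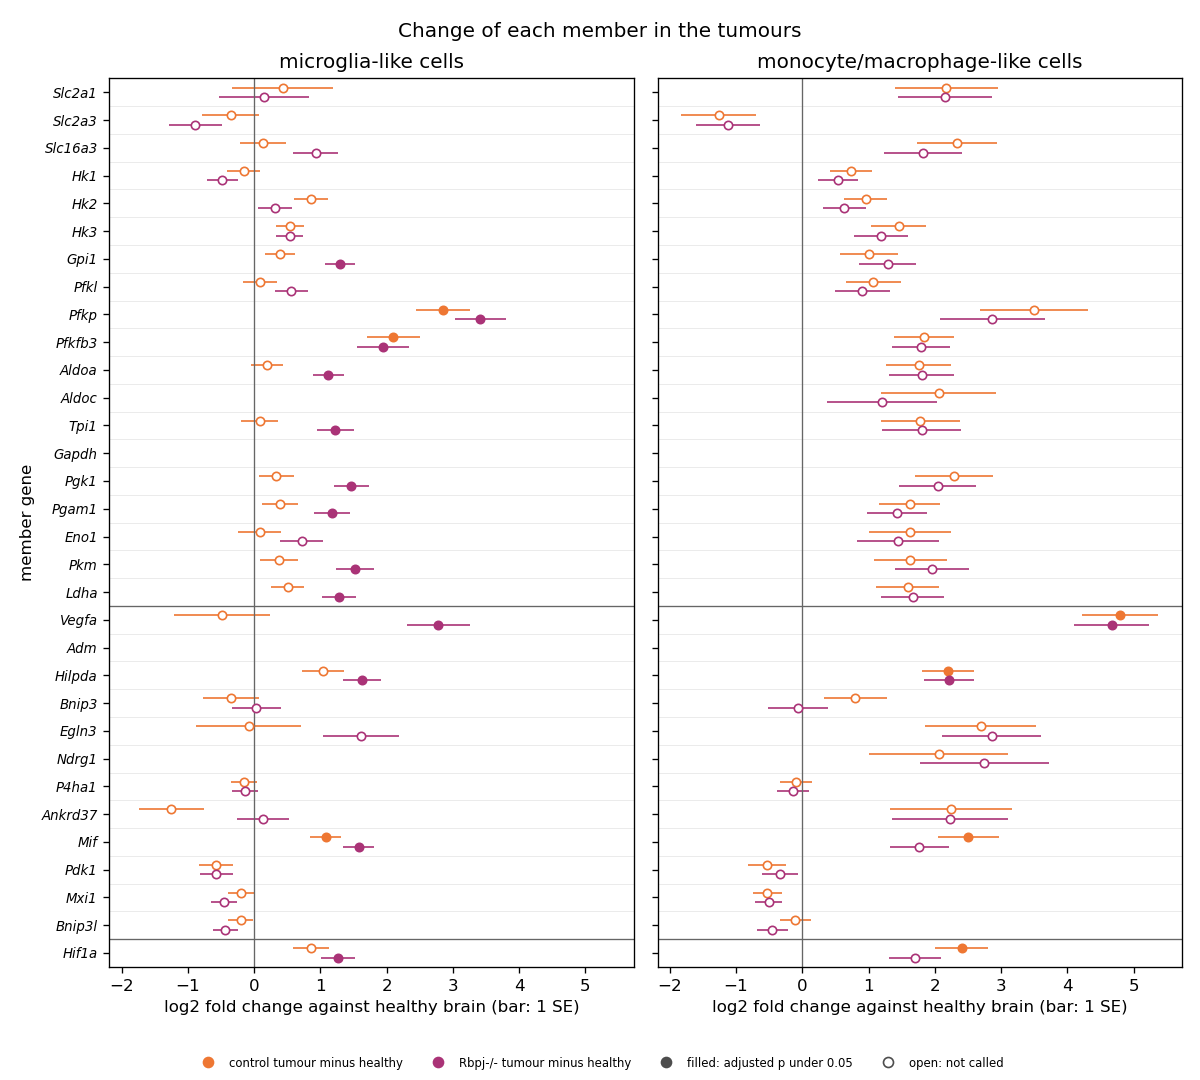
Log2 change against healthy brain with its standard error (horizontal axis) of each gene tested, in control tumours and in Rbpj-/- tumours, for the microglia-like and the monocyte/macrophage-like class, with filled symbols for an adjusted p below 0.05. In the microglia-like class 3 genes are filled for control tumours and 13 for Rbpj-/- tumours, in the other class 4 and 2.

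Only 2 microglial clusters had at least 20 cells in every library, and in neither was a gene of the set called against healthy brain by edgeR. Among cells of the Spp1 and Apoc1 cluster, 0 of 24 genes tested were called in Rbpj-/- tumours, where 0.532% of all genes were called, with a median log2 difference of -0.24 against -0.02 over all genes, and 3 genes had an unadjusted p below 0.05. In control tumours the count was 0 of 24, where 0.279% were called, with a median of -0.60 and 5 genes at an unadjusted p below 0.05. In that cluster Ldha was at 656 and 346 CPM in healthy brain, 326 and 192 CPM in control tumours and 272 and 479 CPM in Rbpj-/- tumours. Pkm there was at 1125 and 569 CPM, 543 and 349 CPM, and 560 and 992 CPM in the same order, so that the healthy cells of the cluster lay as high as those of the tumours. The glycolysis score was 6.11 and 5.996 in its healthy cells against 5.48 to 6.15 in the tumours. The other cluster was led by Gpr34 and Gpr165, with the stress genes Hspa1b and Hspa1a next. Healthy replicate 2 held 1292 of its 1484 cells. In that cluster the score was 4.99 to 5.41 over the 6 libraries. There 0 of 17 genes were called in control tumours (0.0697% of all genes) or in Rbpj-/- tumours (0.139%), with 2 and 1 at an unadjusted p below 0.05. These single-cluster fits were chosen after seeing the data and rest on as few as 26 cells in a library, and cells were placed in clusters by all variable genes, so that cells of 1 cluster are alike by construction.

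The second Rbpj-/- library stood apart from the first in other respects. Border macrophage markers, of which 10 of 10 were detected, summed to 746 CPM in its microglia-like cells against 138 to 180 CPM in the other 5 libraries, and the monocyte markers to 283 CPM against 502 to 781 CPM in the other tumour libraries and 49.4 and 70.0 CPM in healthy brain. Genes of the dissociation and stress list summed to 17540 CPM in it against 30270 to 41740 CPM elsewhere. Without this library 11 genes were called in Rbpj-/- tumours against healthy brain, and without the first Rbpj-/- library 15. Removing cells with at least 3 UMIs over the cell cycle list left 1 call, on 28 to 1274 cells a library. The share of all genes called in that fit is not given.

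Between the tumours, 0 of 28 genes were called in microglia-like cells, where 0.0448% of all genes were called. Without an adjustment 10 had a p below 0.05, and DESeq2, by which 1.40% of all genes were called, called 6 (Aldoa, Gpi1, Pgk1, Pkm, Tpi1, Vegfa). Vegfa had the largest difference, with the Rbpj-/- libraries at 18.6 and 7.82 CPM against 2.37 and 0.475 CPM in control tumours, or 3.27 ± 0.64 on the log2 scale (edgeR adjusted p = 0.10), and the control values rest on 6 and 1 UMIs. The differences of Pkm, Tpi1, Pgk1, Aldoa and Gpi1 lay between 0.90 and 1.15 with standard errors of 0.23 to 0.29 and edgeR adjusted p of 0.15 to 0.17. In 20 of the 28 genes the Rbpj-/- tumours were higher, with a median of 0.53 against -0.01 over all genes. The count depended on single libraries and moved when either Rbpj-/- library or either healthy library was left out. Such fits keep a single library in a group, and the share of all genes called in them is not given.

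In monocyte/macrophage-like cells of control tumours, Vegfa, Hilpda, Mif and Hif1a were higher than in healthy brain. They are 4 of 30 genes tested, where 4.12% of all 11069 genes were called, 3.06% as higher. Of the 30 genes 25 were positive, 24 had an unadjusted p below 0.05, and the median log2 difference was 1.69 against -0.01 over all genes. Of the 18 glycolysis genes tested 0 were called, although 17 of them had an unadjusted p below 0.05 and 17 were positive. In Rbpj-/- tumours Vegfa and Hilpda were higher, 2 of 30 genes, where 4.46% of all genes were called, 2.98% as higher. The median there was 1.68 against -0.02 over all genes, with 24 genes positive and 21 at an unadjusted p below 0.05. Microglial markers, of which 11 of 11 were detected in this class, summed to 15420 and 6538 CPM in healthy brain, 2136 and 8126 CPM in control tumours and 7737 and 4462 CPM in Rbpj-/- tumours, and in healthy replicate 1 they exceeded the border macrophage markers. The summed level of the 19 glycolysis genes was 1990 and 1921 CPM, 5963 and 3240 CPM, and 3142 and 6037 CPM in the same order, so that within each tumour group the library with fewer microglial markers had the higher glycolysis level. The part of these markers in the result was not tested.

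Vegfa was at 2.04 and 0.738 CPM in healthy brain, 48.9 and 24.1 CPM in control tumours and 26.7 and 42.0 CPM in Rbpj-/- tumours, from 20, 2, 150, 41, 307 and 325 UMIs. The tumour libraries overlapped one another and lay far above both healthy ones, with log2 changes of 4.79 ± 0.58 in control tumours (edgeR adjusted p = 0.0079) and 4.67 ± 0.57 in Rbpj-/- tumours (edgeR adjusted p = 0.0081). Hilpda, which slows the breakdown of stored fat, was at 12.2 and 8.49 CPM in healthy brain, 50.5 and 27.0 CPM in control tumours and 35.5 and 44.7 CPM in Rbpj-/- tumours. It changed by 2.20 ± 0.39 in control tumours (edgeR adjusted p = 0.022) and by 2.21 ± 0.38 in Rbpj-/- tumours (edgeR adjusted p = 0.019). Mif was at 63.7 and 80.8 CPM in healthy brain, 440 and 216 CPM in control tumours and 151 and 247 CPM in Rbpj-/- tumours, a log2 change of 2.51 ± 0.46 in the former (edgeR adjusted p = 0.028) and a difference of 1.77 ± 0.45 in the latter (edgeR adjusted p = 0.070). Hif1a was at 14.9 and 17.7 CPM in healthy brain, 92.8 and 42.8 CPM in control tumours and 41.0 and 44.7 CPM in Rbpj-/- tumours. Its log2 change in control tumours was 2.40 ± 0.40 (edgeR adjusted p = 0.020), and its difference in Rbpj-/- tumours was 1.70 ± 0.39 (edgeR adjusted p = 0.052).

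The glycolytic enzymes of this class differed between the libraries of each tumour group. Ldha was at 185 and 153 CPM in healthy brain, 551 and 265 CPM in control tumours and 303 and 564 CPM in Rbpj-/- tumours, a log2 difference in control tumours of 1.59 ± 0.48 (edgeR adjusted p = 0.12). Pkm was at 280 and 262 CPM in healthy brain, 898 and 450 CPM in control tumours and 474 and 1218 CPM in Rbpj-/- tumours. Aldoa was at 280 and 276 CPM in healthy brain, 958 and 554 CPM in control tumours and 482 and 1080 CPM in Rbpj-/- tumours. In each of the 3 genes every tumour library lay above healthy brain, control tumour replicate 1 above replicate 2, and Rbpj-/- replicate 2 above replicate 1. Eno1 was at 172 and 167 CPM in healthy brain, 575 and 261 CPM in control tumours and 186 and 557 CPM in Rbpj-/- tumours. Gpi1 was at 207 and 259 CPM in healthy brain, 490 and 263 CPM in control tumours and 338 and 581 CPM in Rbpj-/- tumours. In both of these the lowest tumour library lay just above the higher healthy one.

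Pfkp was at 12.02 and 14.4 CPM in healthy brain, 188 and 43.4 CPM in control tumours and 47.9 and 106 CPM in Rbpj-/- tumours, a log2 difference in control tumours of 3.49 ± 0.82 (edgeR adjusted p = 0.079). Pfkfb3 was at 9.68 and 8.49 CPM in healthy brain, 25.4 and 28.2 CPM in control tumours and 38.5 and 14.1 CPM in Rbpj-/- tumours, again without overlap (log2 1.84 ± 0.45 in control tumours, edgeR adjusted p = 0.066). Among other enzymes of the route, Pgk1 was at 75.8 and 80.8 CPM in healthy brain, 438 and 173 CPM in control tumours and 160 and 361 CPM in Rbpj-/- tumours. Tpi1 was at 123 and 130 CPM, 486 and 207 CPM, and 197 and 510 CPM in the same order, and Pgam1 at 127 and 123 CPM, 407 and 209 CPM, and 188 and 358 CPM. The healthy values of all 3 were the lowest, and the differences in control tumours were 2.29 ± 0.59, 1.78 ± 0.60 and 1.62 ± 0.46 on the log2 scale (edgeR adjusted p of 0.086, 0.16 and 0.10). Hk2 was at 300 CPM in each healthy library, 430 and 517 CPM in control tumours and 485 and 283 CPM in Rbpj-/- tumours, so that the second Rbpj-/- library lay below healthy brain. Slc2a1 was at 0.713 and 1.11 CPM in healthy brain, 3.26 and 2.93 CPM in control tumours and 1.83 and 4.39 CPM in Rbpj-/- tumours, without overlap (log2 2.18 ± 0.78 in control tumours, edgeR adjusted p = 0.17). Slc2a3 went the other way, at 9.78 and 8.49 CPM in healthy brain against 1.95 to 4.69 CPM in the tumours (log2 -1.26 ± 0.56 in control tumours, edgeR adjusted p = 0.25).

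The hypoxia targets that did not rise in microglia-like cells did not rise here either. P4ha1 was at 186 and 149 CPM in healthy brain, 116 and 140 CPM in control tumours and 141 and 109 CPM in Rbpj-/- tumours. Bnip3l was at 163 and 197 CPM, 135 and 137 CPM, and 120 and 95.9 CPM in the same order. Mxi1 was at 71.9 and 69.7 CPM in healthy brain against 38.7 to 42.8 CPM in the tumours, and Pdk1 at 51.2 and 46.5 CPM against 20.2 to 35.8 CPM. In all 4 genes every tumour library lay below both healthy ones, and none passed the test, with log2 differences in control tumours between -0.54 and -0.10. Here too the CPM values carry no TMM scaling, without which the median of all genes was negative. The share of all genes that lay below in the same way is not given. The feedback and stress genes Egln3, Ankrd37 and Ndrg1 had log2 differences of 2.06 to 2.69 in control tumours with standard errors of 0.84 to 1.05 and did not pass. They were rare, at most 16.6 CPM.

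The calls of this class also moved with the cells in it. The cluster led by Saa3, Ly6i, Arg1 and Chil3, genes of newly arrived monocytes and of alternatively activated macrophages, held 15 and 23 cells in healthy brain, 122 and 27 in control tumours, with 182 and 568 in Rbpj-/- tumours, whereas the cluster led by Lyve1, a border macrophage marker, held 817 and 232, then 25 and 9, then 37 and 31. In the Saa3 cluster the glycolysis score was 7.01 and 6.41 in control tumours, 6.26 and 6.76 in Rbpj-/- tumours and 5.69 in the 1 healthy library with enough cells. Vegfa there was at 70.8 and 54.5 CPM in control tumours, 77.4 and 54.0 CPM in Rbpj-/- tumours and 8.2 CPM in that healthy library. In the cluster led by Ccl8 and Gbp2b, almost absent from healthy brain with 0 and 1 cells, the score was 5.78 to 6.34. Within the border macrophage clusters alone 5 of 25 genes were called in control tumours (Hif1a, Hilpda, Mif, Pfkfb3, Pfkp), where 3.63% of all genes were called, and 8 in Rbpj-/- tumours (Aldoa, Hilpda, Ldha, Pfkfb3, Pfkp, Pgam1, Pgk1, Pkm), where 5.58% were. Within the monocyte clusters alone 13 of 28 were called in control tumours, where 7.96% of all genes were, Vegfa among them with a log2 change of 3.73, and 5 in Rbpj-/- tumours, where 5.62% were. Both fits were chosen after seeing the data. The healthy cells of the monocyte clusters came mostly from the cluster led by Ace and Treml4, patrolling monocytes by these genes.

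**Figure D4:**
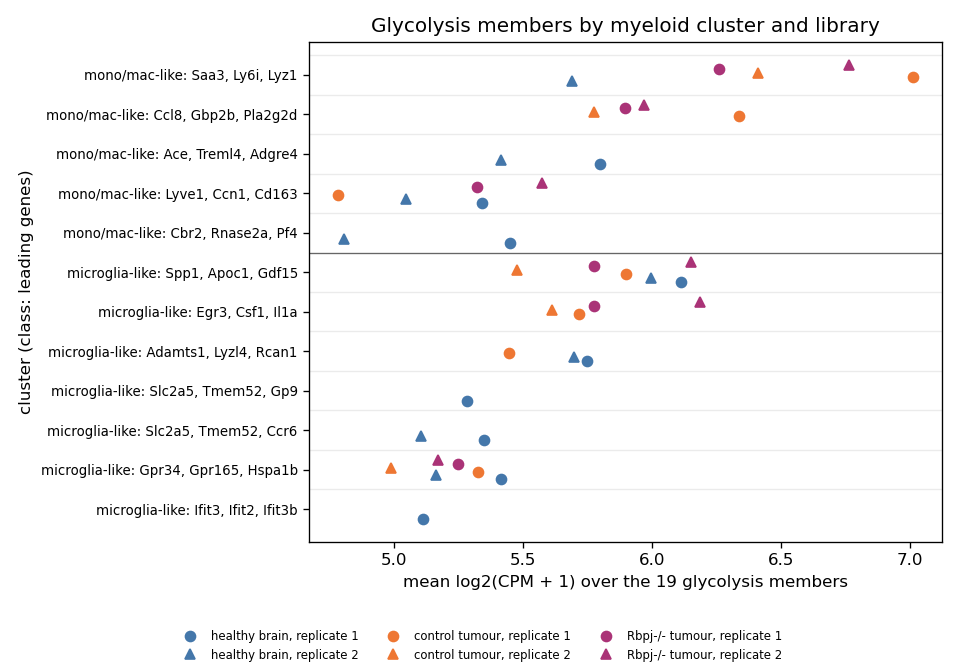
Glycolysis score (mean log2(CPM + 1) over 19 genes, horizontal axis) of each library with at least 20 cells of a cluster, by microglia-like and monocyte/macrophage-like cluster, each point 1 library. In the microglial cluster led by Spp1 and Apoc1 the healthy libraries (6.11 and 5.996) lie among the tumour libraries, and in the macrophage cluster led by Saa3 and Ly6i the single healthy library (5.69) lies below the 4 tumour libraries.

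Single libraries also set these counts. Leaving out either healthy library left 1 call in control tumours and 1 in Rbpj-/- tumours, leaving out control tumour replicate 1 left 2 in the former, and leaving out control tumour replicate 2 gave 11. In Rbpj-/- tumours the count was 8 without either control library and 4 without Rbpj-/- replicate 1. With a batch term that sets healthy replicate 1 beside the control tumours and healthy replicate 2 beside the Rbpj-/- tumours, a split found in the data and not in the labels, 1 gene was called in each comparison. DESeq2 called 15 and 13 genes, where 8.10% and 8.24% of all genes were called.

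Between the tumours, 0 of 30 genes were called in monocyte/macrophage-like cells, where 0% of all genes were called. At an unadjusted p below 0.05 there were 0 genes too, DESeq2, by which 0.154% of all genes were called, called 0 as well, and the median log2 difference was -0.09 against 0.01 over all genes. Vegfa differed by -0.13 ± 0.44, Hilpda by 0.01 ± 0.36 and Ldha by 0.08 ± 0.47. The spread between libraries of a group left standard errors of 0.21 to 0.89 in this comparison.

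Whether the change from healthy brain differed between the classes was tested by an interaction term over the 12 sums, with the library as a term. In control tumours 1 of 30 genes passed, Slc16a3, where 0.119% of 11782 genes were called, 0.0509% as higher. Slc16a3 was at 34.2 and 17.3 CPM in healthy monocyte/macrophage-like cells, 151 and 60.4 CPM in those of control tumours and 52.1 and 99.3 CPM in those of Rbpj-/- tumours. In microglia-like cells it was at 61.9 and 50.9 CPM, 75.7 and 38.9 CPM, and 70.0 and 122 CPM. The healthy level was thus higher in microglia-like cells, and the level in control tumours higher in monocyte/macrophage-like cells. The change in control tumours was greater in monocyte/macrophage-like cells by 2.18 ± 0.28 on the log2 scale (edgeR adjusted p = 0.021). Both control libraries lay above both healthy ones in the monocyte/macrophage-like class, whereas in the microglia-like class 1 lay above and 1 below. For the other genes the difference was not called, although 19 of 30 had an unadjusted p below 0.05 and the median was 1.16 against -0.04 over all genes. In Rbpj-/- tumours 0 of 30 genes passed, where 0.789% of all genes were called, with 4 at an unadjusted p below 0.05 and a median of 0.35 against 0.01. For Rbpj-/- against control tumours 0 of 30 passed, where 0.0424% were called, with 13 at an unadjusted p below 0.05 and a median of -0.75 against 0.02. Vegfa had a difference between classes of 5.24 ± 1.15 in control tumours (edgeR adjusted p = 0.20). The call for Slc16a3 was not made with the stricter filter on low counts, without control tumour replicate 1 or with the border macrophage clusters alone. The count of genes in control tumours was 7 without control tumour replicate 2, 15 with no filter, 8 with barcodes called mixed only from 10% of a lineage's level, 7 with mixed barcodes kept, 3 without the Egr3 and Csf1 cluster and 10 in the monocyte clusters alone.

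T-like cells were compared between the tumours only, since the healthy libraries held 34 and 14 of them. The make-up of this class differed too. NK cell markers in it summed to 311 and 497 CPM in control tumours against 1356 and 1898 CPM in Rbpj-/- tumours, and their part was not tested. Of 22 genes tested 0 were called, where 0.209% of 7166 genes were called, 1 gene had an unadjusted p below 0.05, DESeq2 (0.391% of all genes) called 0, and the median log2 difference was 0.04 against -0.01 over all genes. Ldha was at 1209 and 649 CPM in control tumours and 1065 and 1232 CPM in Rbpj-/- tumours, which overlapped. Pkm was at 832 and 566 CPM and 746 and 1101 CPM, and Aldoa at 823 and 704 CPM and 831 and 1152 CPM. Eno1 was at 603 and 429 CPM and 376 and 868 CPM, and Gpi1 at 440 and 456 CPM and 527 and 569 CPM. Pgk1 was at 481 and 337 CPM and 397 and 474 CPM. For Gpi1 and Aldoa the Rbpj-/- libraries lay above those of control tumours, but differed by only 0.18 ± 0.22 and 0.28 ± 0.24 on the log2 scale. Among the hypoxia targets of these cells, Mif was at 732 and 371 CPM in control tumours and 418 and 357 CPM in Rbpj-/- tumours, Hilpda at 297 and 165 CPM and 304 and 223 CPM, Bnip3l at 168 and 181 CPM and 163 and 117 CPM, and Mxi1 at 58.0 and 67.0 CPM and 101 and 48.6 CPM. All but Bnip3l overlapped. Hif1a was at 107 and 47.3 CPM in control tumours and 29.3 and 46.6 CPM in Rbpj-/- tumours, narrowly without overlap, with a log2 difference of -1.09 ± 0.43 (edgeR adjusted p = 0.70). Leaving out control tumour replicate 2 keeps a single control library. The log2 differences of Hif1a and Hk2 in Rbpj-/- tumours were then -1.50 and -1.26, and they rest on that library.

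Tumour T-like cells and the microglia-like and monocyte/macrophage-like classes differed in which of these genes they held, described here without a test because the classes come from clustering on all genes. Pgk1 was at 337 to 481 CPM in tumour T-like cells and at 66.4 to 215 CPM in tumour microglia-like cells. In tumour monocyte/macrophage-like cells it was at 160 to 438 CPM, which overlapped the T-like cells. Hilpda was at 165 to 304 CPM in T-like cells and at 13.3 to 50.5 CPM over the tumour libraries of those classes. Hk2 was at 31.1 to 98.9 CPM in T-like cells and at 283 to 1098 CPM in tumour microglia-like and monocyte/macrophage-like cells, and P4ha1 at 26.6 to 34.7 CPM against 109 to 244 CPM. Dendritic-like cells of the tumours held Hk2 at 159 to 406 CPM and P4ha1 at 47.6 to 102 CPM. Microglial markers summed to 1390 to 6466 CPM in them, and the part of these was not tested. Slc2a1 was at 0.382 to 2.66 CPM in T-like cells of the tumours. Slc2a3 was at 29.3 to 43.7 CPM in T-like cells of the tumours and at most 4.75 CPM in tumour microglia-like and monocyte/macrophage-like cells. Vegfa was at 0 to 4.58 CPM in T-like cells of the tumours. Genes of the cell cycle list summed to 7180 to 9070 CPM in these cells. In tumour microglia-like and monocyte/macrophage-like cells they summed to 821 to 1174 CPM, and their part was not tested. The 34 cells of healthy replicate 1 named T-like go against that name: their microglial markers summed to 22080 CPM, against 200.1 to 334 CPM in tumour T-like cells, and their T cell markers to 1946 CPM against 9793 to 12270 CPM. Their levels are therefore not given as those of T cells.

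The remaining classes were small and were not tested. Dendritic-like cells had a glycolysis score of 5.74 and 5.50 in healthy brain, 6.07 in the 1 control tumour library with enough cells and 6.03 and 6.20 in Rbpj-/- tumours. Pfkp in them was at 88.1 and 75.7 CPM in healthy brain, 310 CPM in that control tumour library and 109 and 145 CPM in Rbpj-/- tumours, and the tumour values lay above the healthy ones. Microglial markers in this class summed to 11520 and 3383 CPM, 1390 CPM, and 6466 and 5326 CPM in the same order. Its dendritic markers summed to 1421 and 1147 CPM, 2938 CPM, and 2430 and 2417 CPM. The part of these markers in the dendritic-like levels was not tested. NK-like cells were counted in 3 tumour libraries with enough cells, with a score of 5.29 to 5.58. Hilpda in them was at 105 to 121 CPM and Vegfa at 130 CPM in control tumour replicate 1 against 23.3 and 12.7 CPM in the Rbpj-/- tumours. B-like cells had scores from 4.24 to 5.33, on 21 to 65 cells, and the lowest score of any class within each of the 4 libraries with enough of them. That rank depended on leaving out mixed barcodes. With these kept, the B-like score was 5.48 and 5.365 in healthy brain and 5.89 in control tumour replicate 1. Microglia-like cells of the same libraries then scored lower, at 5.40, 5.28 and 5.80. Only in Rbpj-/- replicate 2 did B-like cells stay lowest.

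Further genes of these pathways came from lists separate from the 32. In microglia-like cells of Rbpj-/- tumours, 3 of 16 other glycolysis genes tested rose and 1 fell, where 11.7% of all genes were called. Slc2a6, a glucose transporter induced in inflamed macrophages, changed by 5.45 ± 0.49 (edgeR adjusted p = 6.2e-05), Eno2 by 1.90 and Tigar by 1.35, and the muscle enolase Eno3 fell by 1.64 on the log2 scale. Of 25 other hypoxia targets 7 rose and 2 fell: Bhlhe40, a clock-linked repressor, changed by 4.39, Nampt by 1.55, Tpd52 by 1.42 and the carbonic anhydrase Car9 by 3.53, while Ddit4, an mTOR inhibitor induced by stress hormones and low oxygen, fell by 3.80 and Narf by 0.80. Among 10 other HIF pathway regulators 0 rose and 1 fell, Hif3a, by 3.39. In control tumours, where 3.69% of all genes were called, Slc2a6 rose and Eno3 fell among the 16, Bhlhe40, Lox, Nampt and Plin2 rose and Narf fell among the 25, and 0 of the 10 were called.

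In monocyte/macrophage-like cells of control tumours, where 4.12% of all genes were called, 0 of 15 other glycolysis genes rose and 1 fell, Slc16a7, a monocarboxylate transporter, by 1.30 on the log2 scale. Of 25 other hypoxia targets 2 rose and 2 fell: Bhlhe40 changed by 2.67 and Nampt by 1.64, Ddit4 fell by 3.03 and Selenbp1 by 1.17. In Rbpj-/- tumours, where 4.46% were called, Slc2a6 rose and Slc16a7 fell among the 15, and Bhlhe40 rose and Ddit4, Selenbp1 and Tfrc fell among the 25. Hif3a fell by 3.15 in control tumours and by 4.16 in Rbpj-/- tumours, 1 of 11 other HIF pathway regulators in each.

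Of 16 genes of the citric acid cycle 0 were called in either class in any of the 3 group comparisons. At an unadjusted p below 0.05 there were 0 in microglia-like cells of control tumours and 2 in those of Rbpj-/- tumours, with medians of -0.03 and 0.21 on the log2 scale. Monocyte/macrophage-like cells had 6 and 4, with medians of 0.57 and 0.31 and with 12 and 13 of 16 positive. For the difference between the classes in control tumours 0 were called, 9 had an unadjusted p below 0.05, 15 of 16 were positive and the median was 0.59. Of 9 genes for the entry of pyruvate into mitochondria and its control, 1 was called, Pdk3, a pyruvate dehydrogenase kinase and paralog of Pdk1 that restrains this entry, which rose by 0.88 in microglia-like cells of Rbpj-/- tumours. Of 7 genes of the pentose phosphate pathway, which branches off above phosphofructokinase, Tkt rose by 1.07 in the same comparison. Of the 7, 0 were called in monocyte/macrophage-like cells, 7 and 6 were positive in control and Rbpj-/- tumours, and the medians were 0.55 and 0.84. Cell cycle genes moved with the glycolytic ones: 11 of 21 rose and 0 fell in microglia-like cells of Rbpj-/- tumours, with a median of 1.78, and 2 rose in those of control tumours. Of all genes, 8.10% and 3.25% were called as higher in these comparisons. Without cells that held at least 3 UMIs over the mitosis genes of that list, an alternative chosen after seeing the data, 13 genes of the 32 were called in microglia-like cells of Rbpj-/- tumours and 3 in those of control tumours.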

How the data were processed

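The authors deposited 1 table of counts, whole-number UMIs per gene and barcode, for the 6 libraries. Its making names kallisto 0.46.0, bustools 0.39.3 and the build mm10, per the submitters' processing notes, with no role or setting given in the sources used here, and its lowest barcode total was 1000. Gene symbols and transcripts came from GENCODE vM21 and promoters from RefSeq (GRCm38.p6). The genes and all lists were chosen with earlier results of these data known.

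The minimum was 500 genes and the highest mitochondrial share 10% (17 barcodes failed). Copies, barcodes whose sequence carried more than 10-fold higher counts in a different library, were dropped (256). So were mixed barcodes, in which markers of 2 lineages each had at least 3 counts and at least 5% of the level of that lineage (2724, of which 1752 were myeloid with T or NK). No doublet caller was run. The other 14365 cells were clustered with scanpy 1.11.5 (2000 variable genes, 30 principal components, 20 neighbours, Leiden resolution 1), and clusters were named from fixed markers. Clusters of mainly cycling cells were left unnamed, a rule chosen after seeing the clusters, so they enter no class.

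Counts were summed per library and class with at least 20 cells. The quasi-likelihood test of edgeR 4.0.16 was run on all genes left by its expression filter, scaled by TMM, with 3 groups in 1 fit, except for T-like cells (4 tumour libraries). The test of the difference between classes used library, class and class by group terms. P-values were adjusted by Benjamini-Hochberg over all genes tested, and the scripts were tested on simulated counts. Two-sided tests were used throughout. CPM values carry no TMM scaling, whereas log2 changes do. Scores used a pseudocount of 1.

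Genes named with each library's value were those called in any comparison, the 6 glycolysis genes and 4 hypoxia targets of highest mean CPM per class, and Hif1a, Hk2, Slc2a1, Ldha, Vegfa and Adm. From other lists up to 4 called genes by smallest p were named. Alternatives tried were library size scaling, DESeq2 1.42.0, no or a stricter filter (10 CPM in 2 libraries), leaving out each library, replicate and batch terms, other thresholds for mixed barcodes (10%, or none removed), clustering without these genes, and removal of clusters or cycling cells.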

Additional observations from a re-analysis of the deposited data

Results flagged for a closer look

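Slc16a3, the lactate exporter, was the 1 gene of the set whose change differed between cell classes by the interaction test. Its change from healthy brain to control tumours was greater in monocyte/macrophage-like than in microglia-like cells by 2.18 on the log2 scale (edgeR adjusted p = 0.021, 2 libraries a group). The difference for Rbpj-/- tumours against healthy brain was 0.90 (edgeR adjusted p = 0.21). It was not called in control tumours with the stricter filter on low counts, without control tumour replicate 1, or within the border macrophage clusters alone. The libraries of control tumours differed in make-up: control tumour replicate 1 held 122 of 209 monocyte/macrophage-like cells in the cluster led by Saa3 and replicate 2 held 27 of 83, against 15 of 1021 and 23 of 318 in healthy brain. Their part in the result was not tested.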

How the results depend on the processing

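Over the 23 calls of a gene in a comparison, 451 alternative values were computed. Of these 373 kept direction and call, 66 kept the direction and lost the call, and 12 changed sign.

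Counts of genes called moved with the processing as follows, the cause not being tested. Unless a share is printed beside it, a count from an alternative comes without the share of all genes called in that fit. Such a count does not show whether these genes moved more than the rest. In microglia-like cells of control tumours against healthy brain (3 called) the count was 6 with no filter, 0 without the Csf1 and Egr3 cluster, 1 without cells of 3 or more cell cycle UMIs, and 0 in the Spp1 and in the Gpr34 cluster. For Rbpj-/- tumours (13 called) it was 1 without cells of 3 or more cell cycle UMIs and 0 in either cluster, and between the tumours (0 called) it was 6 with DESeq2 and 9 with no filter. In monocyte/macrophage-like cells of control tumours (4 called) it was 15 with DESeq2, 18 with no filter, 1 with the library split as a batch, 11 with mixed barcodes called more strictly (higher level) or kept, and 13 in monocyte clusters. For Rbpj-/- tumours (2 called) the same settings gave 13, 19, 1, 7, 7 and 5, and border macrophage clusters 8. For the difference between classes in control tumours (1 called) it was 15 with no filter, 0 with the stricter filter, 8 and 7 with mixed barcodes at the higher level or kept, 3 without the Csf1 cluster, 0 in border and 10 in monocyte clusters. In Rbpj-/- tumours (0 called) it was 4 with no filter and 1 without the Csf1 cluster or in monocyte clusters, and between the tumours 6 with no filter and 5 in monocyte clusters.

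The replicate numbers are shared but did not pair the libraries, since their deviations correlated by -0.50 to 0.27 over pairs of groups. With the replicate block, 1 gene was called between the tumours in microglia-like cells, and the other counts stayed within 1.5 times of those without it (3 and 13 in microglia-like cells, 3, 2 and 0 in monocyte/macrophage-like cells, 0 in T-like cells). A crossed replicate block, not planned beforehand, set control tumour replicate 1 beside replicate 2 of the other groups. This arrangement matches the signs of the correlations in monocyte/macrophage-like cells, so it is no independent check. With it the counts were 14 and 15 in those cells against healthy brain, and the share of all genes called is not given.

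Leaving out 1 library at a time gave 1 to 4, 11 to 15 and 0 to 8 calls in microglia-like cells (control tumours, Rbpj-/- tumours, between the tumours), 1 to 11, 1 to 8 and 0 in monocyte/macrophage-like cells, 0 to 2 in T-like cells, and 0 to 7, 0 to 1 and 0 to 1 for the difference between classes.

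Signs changed for Mif in control tumours, to -0.80 in the Spp1 cluster and -0.39 without cells of 3 or more cell cycle UMIs, and in Rbpj-/- tumours to -0.86 in the Gpr34 cluster. In the Spp1 cluster of Rbpj-/- tumours the log2 differences were -0.62 for Hif1a, -0.050 for Hilpda, -0.27 for Ldha, -0.71 for Mif, -0.027 for Pfkfb3, -0.12 for Pgam1, -0.21 for Pgk1, -0.50 for Tpi1 and -0.92 for Vegfa.

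Scaling by library size alone moved the median of all genes to -0.13 and -0.22 in microglia-like cells (control and Rbpj-/- tumours) and to -0.32 and -0.31 in monocyte/macrophage-like cells, with medians over the genes tested of 0.06, 0.85, 1.38 and 1.38 and 3, 14, 4 and 2 calls. By that scaling the split of all genes called into higher and lower was 308 and 92, 695 and 922, 243 and 244, and 231 and 263, against 363 and 49, 905 and 403, 339 and 117, and 330 and 164 with TMM. Tests without cells of 3 or more cell cycle UMIs were not run for monocyte/macrophage-like and T-like cells and for the difference between classes. Too few cells were left there. Counts were low in microglia-like cells for Adm (1 UMI over the 6 libraries), Ndrg1 (at most 5 UMIs a library), Aldoc (1 to 4 UMIs in 5 of 6 libraries) and, in control tumours, for Slc2a1 (7 and 2 UMIs) and Vegfa (6 and 1).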
